A study of Homo sapiens with 7 samples.

Results

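The genes described here are 31 genes of sterol and fatty acid synthesis, chosen by symbol from 15659 gene symbols counted in HCT116 cells. HCT116 is a human colorectal carcinoma line. The list holds 18 sterol enzymes, 8 fatty acid enzymes and 5 genes of sterol sensing and transport. It does not hold every enzyme of either route. The question was whether their messenger RNAs differed between cells given miR-148a-3p (3 libraries) and cells given a control miRNA (3 libraries), and whether the sterol and fatty acid branches differed from each other. The cells of both groups carried a DROSHA knockout (HCT116 DROSHA-KO). Without DROSHA, the nuclease that starts microRNA maturation, few canonical microRNAs are made in either group. Cells were harvested 48 h after transfection, and libraries were made from 500 ng of RNA with oligo-dT primers. The labels name 1 knockout line and do not say whether it is 1 clone. The sequence of the control miRNA was not given in the sources used here. A single small RNA library of wild-type HCT116 cells was used for the microRNAs that lie within members of the list.

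Cholesterol is built from acetyl-CoA through mevalonate, isoprenoid pyrophosphates, squalene and lanosterol. Fatty acids are built from the same acetyl-CoA by carboxylation, chain building, elongation and desaturation. Both routes are driven by the SREBP transcription factors, membrane proteins that SCAP escorts out of the endoplasmic reticulum when sterol is low and that INSIG proteins hold back when it is high. SREBP-2, from SREBF2, acts mainly on the sterol genes, and the SREBP-1c form from SREBF1 mainly on the fatty acid genes. Carcinoma cells often make much of their fatty acid themselves.

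The microRNA sequences are shown because miR-148a-3p was the agent given, and because miR-33a and miR-33b are encoded inside SREBF2 and SREBF1. Capitals mark the seed, bases 2 to 8, which sets most target recognition. The sequences are from RefSeq (GRCh38.p14), 5′ to 3′.
miR-148a-3p: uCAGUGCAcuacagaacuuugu
miR-33a-5p: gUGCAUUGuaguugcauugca
miR-33b-5p: gUGCAUUGcuguugcauugc
miR-33a-5p and miR-33b-5p share 1 seed, which differs from that of miR-148a-3p. Seed matches in messenger RNAs were not searched for, because transcript sequences were not used here.

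Promoter sequences are shown for SREBF2, the member that held the sterol regulatory form TCACNCCAC, and for HMGCS1 and FDPS, the members with the smallest p in each direction. Each line holds the 180 bases before the start of the gene in RefSeq (GRCh38.p14), read in the direction of the gene. Capitals mark TCACNCCAC and CCAAT on either strand (ATTGG is CCAAT read from the other strand). SREBP binds the first form, and NF-Y, its usual partner, binds the second.
SREBF2 (chr22:41832925-41833104, plus strand): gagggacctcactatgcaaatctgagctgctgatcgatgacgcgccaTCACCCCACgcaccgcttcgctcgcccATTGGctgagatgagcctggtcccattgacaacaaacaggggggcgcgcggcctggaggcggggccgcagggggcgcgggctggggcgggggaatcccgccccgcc
HMGCS1 (chr5:43313413-43313592, minus strand): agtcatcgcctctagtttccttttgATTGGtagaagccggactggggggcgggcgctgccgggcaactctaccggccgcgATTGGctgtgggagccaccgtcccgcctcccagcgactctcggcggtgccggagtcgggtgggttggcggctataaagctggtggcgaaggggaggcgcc
FDPS (chr1:155308686-155308865, plus strand): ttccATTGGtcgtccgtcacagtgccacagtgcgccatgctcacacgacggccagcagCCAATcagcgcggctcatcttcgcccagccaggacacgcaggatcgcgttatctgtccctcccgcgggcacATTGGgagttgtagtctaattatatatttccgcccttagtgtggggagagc
Promoter windows, from 250 bases before to 50 after the start, were found for 27 of the 31 genes. CCAAT lay on either strand in a window of 21 of these 27, and of 44.2% of the 7301 tested genes with a window. It was present in 13 of 15 sterol enzymes and 5 of 7 fatty acid enzymes. TCACNCCAC was found in 1 of 27 (SREBF2) and in 1.38% of the tested genes with a window. The E-box CACGTG, another site SREBP-1 can bind, was found in 4 of 27 (INSIG1, LSS, SC5D and SCAP) and in 13.1% of the tested genes. These letter matches describe the windows and are not evidence of binding. Sterol regulatory forms other than TCACNCCAC were not searched for, so a window without it may hold another.

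The miR-148a-3p libraries held 1564125, 842294 and 630142 counts and the control libraries 1069154, 876131 and 890849. Each count is a read near the 3′ end of a transcript and does not scale with transcript length, so levels are given as TMM-normalised CPM, counts scaled to a common library size, without division by length. On the first principal component control replicate 1 (−31.4) and miR-148a-3p replicate 3 (34.2) lay at opposite ends, with the other 4 libraries from −8.29 to 13.1. For the genes given in full, the lowest or highest value without 1 library is stated if it moved over 1.5 times or changed sign. Not every such move is stated. Without miR-148a-3p replicate 1, for example, INSIG1 had a log2 fold change of −0.14 and SREBF1 of −0.74. Epithelial markers were counted at 780 to 2149 reads in the miR-148a-3p libraries and 1242 to 1608 in the controls, with KRT20 and CDX1 at 0. Most of these reads were from KRT18, with 594 to 1757 and 908 to 1320 reads. Over all libraries CDH1 had 1 to 13 reads, VIL1 0 to 2 and LGALS4 0 to 1. Of 11 blood cell markers 8 were at 0 in all libraries, PTPRC among them, and the list summed to 2 to 10 reads with miR-148a-3p and 2 to 7 in the controls. Fibroblast and endothelial markers summed to 28 to 83 and 34 to 85 reads, with COL1A2, DCN, LUM and CDH5 at 0. Most of these were from COL1A1, with 27 to 74 and 32 to 83 reads. Liver markers summed to 1 to 4 and 0 to 2 reads, with ALB at 0. Whether replicates came from separate cultures is not stated in the labels, so the p-values cover only library-to-library spread, possibly technical. DROSHA had 20, 15 and 13 reads with miR-148a-3p, against 31, 16 and 16 in the controls; the deleted part is not stated, so these 3′ reads do not check the knockout. In bulk RNA, a change in RNA per cell cannot be told apart from a change in the number of cells expressing it.

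All 31 genes were counted in all 6 libraries, and 21 lay above the median level of the genes tested. Their levels spanned SCD, the desaturase that makes oleic acid, at 756 ± 61.1 CPM with miR-148a-3p and 871 ± 261 CPM in the controls, down to FADS2, the delta-6 desaturase, at 12.6 ± 3.99 and 9.78 ± 2.38 CPM (SD, n = 3 each). FADS2 was the 1 gene too low to be tested, which left 30. PMVK, which phosphorylates phosphomevalonate, was the lowest gene tested, with 6 to 20 reads in the miR-148a-3p libraries and 7 to 20 in the controls. TM7SF2, HSD17B7 and LSS also had 11 or fewer reads in at least 1 library of each group, so their fold changes are imprecise.

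**Figure D1:**
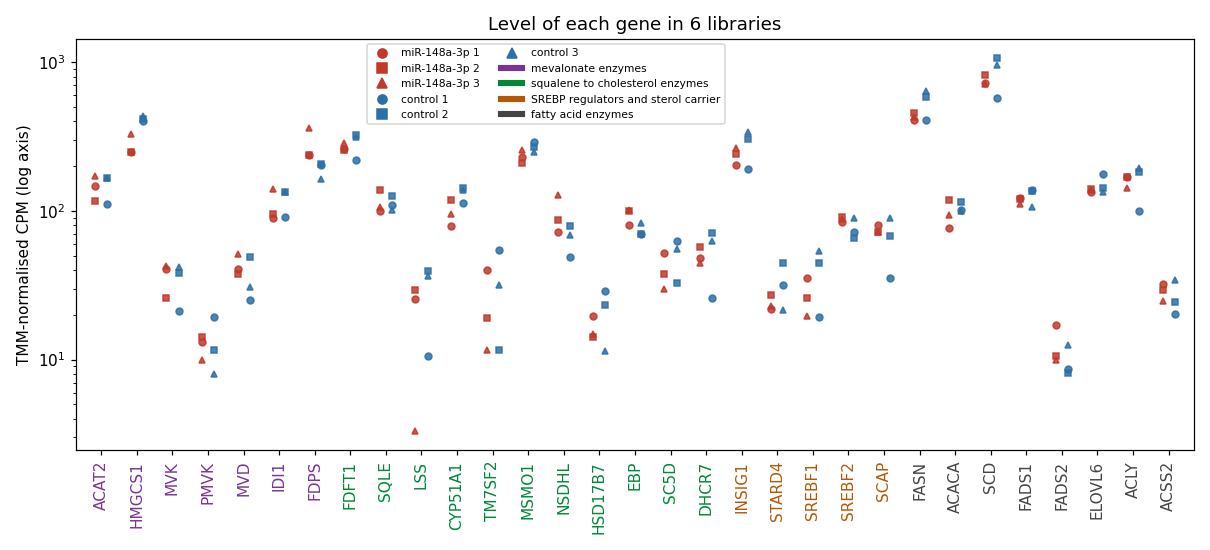
TMM-normalised CPM on a log axis for each of the 31 genes, 1 point per library, with miR-148a-3p in red to the left of control miRNA in blue and gene names coloured by list. SCD and FASN are the most abundant, and the groups overlap for all tested genes but HMGCS1 and FDPS.

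No gene of the list passed the threshold. With edgeR's quasi-likelihood test, 0 of 30 had an adjusted p below 0.05, where 0.0112% of all 8921 genes tested did (1 gene, not a member). DESeq2 and limma-voom also called 0 members. At an unadjusted p below 0.05 there were 2 members, HMGCS1 and FDPS, which is 6.67% of 30, against 6.79% of all genes tested (3.4% lower and 3.4% higher). The same 2 members had groups that did not overlap, 6.67% of 30, against 12.8% of all genes tested (6.59% lower and 6.22% higher). Both shares lay at or below the background. The direction leaned to lower values: with miR-148a-3p 20 of 30 members had fitted values below 0 (66.7%, against 50.5% of all genes tested), and their median log2 fold change was −0.12, against −0.0039 over all genes. That lean depended on the libraries and the test, with 17 of 31 below 0 without control replicate 2, 22 of 31 without control replicate 1 and 18 of 30 with limma-voom. Leaving out 1 library moved the fitted value by over 1.5 times for 27 of the 30 members and changed the sign of 11. HMGCS1, MSMO1 and EBP were the 3 that did neither.

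The mevalonate steps held the largest fitted differences of the list, and they ran in opposite directions. HMGCS1 (chromosome 5, 43287470 to 43313412), the cytosolic synthase that joins acetoacetyl-CoA and acetyl-CoA into HMG-CoA, was at 249, 248 and 328 CPM with miR-148a-3p, against 401, 414 and 435 CPM in the controls. All 3 miR-148a-3p libraries lay below all 3 control libraries. Its fitted level with miR-148a-3p was 0.657 of the control level, a log2 fold change of −0.61 (edgeR adjusted p = 0.398, SE 0.18, unadjusted p = 0.00218). Leaving out 1 library at a time gave −0.74 to −0.54, and the smallest adjusted p under any alternative was 0.0967, without control replicate 1.

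FDPS (chromosome 1, 155308866 to 155320665), which makes farnesyl pyrophosphate, the branch point to squalene and to protein prenylation, was at 236, 237 and 359 CPM with miR-148a-3p, against 202, 208 and 164 CPM in the controls. The 3 miR-148a-3p libraries lay above the controls, with replicate 3 far above the other 2. The fitted ratio was 1.44, a log2 fold change of 0.52 (edgeR adjusted p = 0.616, SE 0.20, unadjusted p = 0.0144). Without miR-148a-3p replicate 3 it was 0.30, the lowest value with 1 library left out, and without miR-148a-3p replicate 1 it was 0.63, the highest. RefSeq names 10 FDPS pseudogenes, and none of them was listed in these files.

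The other mevalonate enzymes had groups that overlapped. MVD, the decarboxylase that yields isopentenyl pyrophosphate, was at 40.9, 37.9 and 51.0 CPM with miR-148a-3p, against 25.0, 49.0 and 30.7 CPM in the controls. The difference of 0.30 (edgeR adjusted p = 0.893, SE 0.32) was smaller than its error, and it was 0.10 without control replicate 1 and 0.62 without control replicate 2. ACAT2, the thiolase at the head of the route, MVK and PMVK, the 2 kinases, and IDI1, the isopentenyl pyrophosphate isomerase, had log2 fold changes from −0.17 (IDI1) to 0.12 (MVK), each within 1 SE of 0. All but IDI1 changed sign with 1 library left out; MVK, for example, was −0.14 without control replicate 1. In miR-148a-3p replicate 3, 5 of the 7 mevalonate enzymes had their highest level of the 6 libraries (71.4%, against 19.6% of all genes tested). This library was singled out for that count. The later sterol enzymes did not share it: 2 of 11 were highest there (18.2%) and 3 of 11 lowest (27.3%, against 20.1% of all genes tested). ACAT2 overlaps TCP1 on chromosome 6, which had 232 to 507 reads with miR-148a-3p and 180 to 287 in the controls. MVK overlaps MMAB on chromosome 12 (23 to 53 reads and 24 to 39 reads). The use of strand in counting was not given in the sources used here, so reads of such pairs may have been divided between them. Over the 7 mevalonate enzymes, 4 had lower and 3 higher fitted values, with a median of −0.03.

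**Figure D2:**
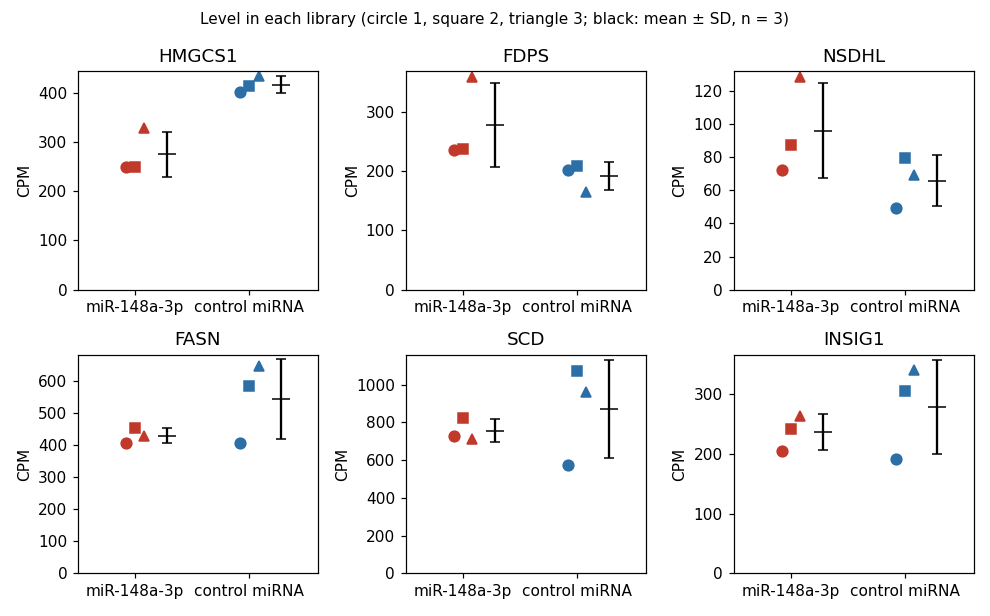
CPM in each library for HMGCS1, FDPS, NSDHL, FASN, SCD and INSIG1, with miR-148a-3p (red) left of control miRNA (blue), a marker shape per replicate, and mean ± SD (n = 3) in black. HMGCS1 and FDPS separate the groups in opposite directions, while FASN, SCD and INSIG1 have control replicate 1 (circle) below the other 2 controls.

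The steps that follow, leading via squalene to cholesterol, also pointed both ways. NSDHL (chromosome X, 152831063 to 152869729), which removes the 4-methyl groups of sterols together with MSMO1 and HSD17B7, was at 72.5, 87.6 and 128 CPM with miR-148a-3p, against 49.1, 79.3 and 69.4 CPM in the controls. Replicate 1 of the miR-148a-3p group lay inside the control range. The log2 fold change was 0.52 (edgeR adjusted p = 0.726, SE 0.26), 0.33 without control replicate 1 and 0.28 without replicate 3 of the miR-148a-3p group. EBP, the isomerase that shifts the double bond of the sterol ring, was at 80.4, 101 and 102 CPM, against 70.3, 70.0 and 83.0 CPM, a difference of 0.33 (edgeR adjusted p = 0.807, SE 0.23). Here the overlap came from miR-148a-3p replicate 1 and control replicate 3.

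CYP51A1 (chromosome 7, 92112153 to 92134803), the lanosterol 14-alpha demethylase, was at 79.8, 118 and 95.5 CPM with miR-148a-3p, against 114, 144 and 138 CPM in the controls. Its lower fitted value of −0.44 (SE 0.22) did not pass (edgeR adjusted p = 0.726), and control replicate 1 lay below miR-148a-3p replicate 2. Without miR-148a-3p replicate 1 it was −0.29. FDFT1, the squalene synthase that draws on the product of FDPS, was the most abundant enzyme of these steps, at 261, 258 and 288 CPM with miR-148a-3p, against 222, 323 and 312 CPM in the controls. The fitted difference was −0.09 (edgeR adjusted p = 0.947, SE 0.19), and it was 0.011 without control replicate 2 and −0.24 without control replicate 1. SQLE, the squalene epoxidase, had a fitted difference of 0.02 (SE 0.22), from −0.12 to 0.13 with 1 library left out.

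Of the remaining 6 genes of these steps, all had lower fitted values, from −0.08 for DHCR7, the last reductase, to −0.45 for LSS, which closes the sterol rings, and each had an SE of 0.18 or more. LSS had 2 reads in miR-148a-3p replicate 3 and 11 in control replicate 1, against 25 to 39 in the other 4 libraries, and its value was −0.05 without the first of these and −0.86 without the second. TM7SF2, a sterol reductase, ranged from 11.5 to 40.2 CPM with miR-148a-3p and from 11.7 to 54.9 CPM in the controls. Its value of −0.39 turned to 0.22 without control replicate 1 and was −1.09 without miR-148a-3p replicate 1, and that of DHCR7 turned to 0.19 without control replicate 2. MSMO1, the sterol methyl oxidase, was measured more tightly, at 232 ± 24.7 and 269 ± 21.4 CPM, with a difference of −0.22 (SE 0.18). In all, 8 of these 11 enzymes had lower and 3 higher fitted values, with a median of −0.22. None had an unadjusted p below 0.05.

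**Figure D3:**
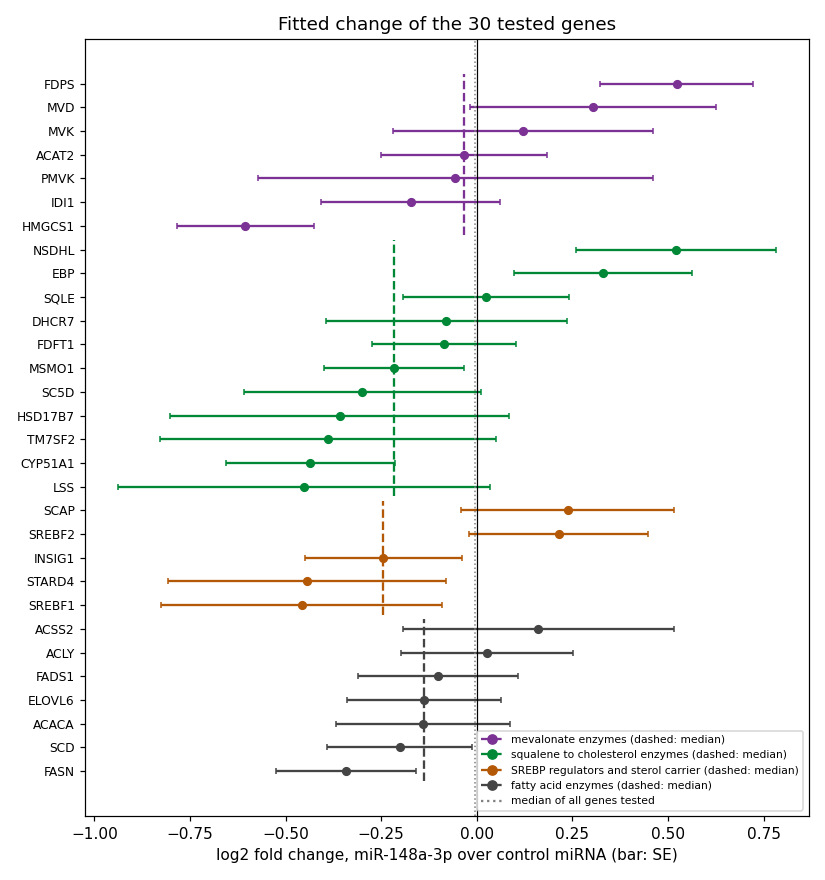
Log2 fold change, miR-148a-3p over control miRNA, with its SE for the 30 genes tested, grouped by list, with each list's median (dashed) and the median of all genes tested (dotted). FDPS at 0.52 and HMGCS1 at −0.61 are the extremes, and the 4 list medians lie between −0.25 and −0.03.

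None of the genes of sterol sensing and transport passed the test. INSIG1 (chromosome 7, 155297878 to 155310235), which retains SCAP and is itself an SREBP target, was at 204, 241 and 263 CPM with miR-148a-3p, against 191, 306 and 341 CPM in the controls. The control group was split, with replicate 1 below all 3 miR-148a-3p libraries and the other 2 above them. The log2 fold change was −0.25 (edgeR adjusted p = 0.862, SE 0.21) with all libraries and −0.47 (edgeR adjusted p = 0.433, SE 0.18) without control replicate 1, and it was −0.07 without control replicate 3.

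SREBF1 (chromosome 17, 17811334 to 17836986) was at 35.6, 26.0 and 19.8 CPM with miR-148a-3p, against 19.3, 44.3 and 53.5 CPM in the controls. Control replicate 1 was again the lowest library. The fitted difference of −0.46 (edgeR adjusted p = 0.852, SE 0.37) became −0.79 (edgeR adjusted p = 0.545, SE 0.35) without it and −0.16 without control replicate 3. RAI1 overlaps SREBF1 in RefSeq, with 10 to 32 reads in the miR-148a-3p libraries and 7 to 44 in the controls.

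SREBF2 (chromosome 22, 41833105 to 41907305), whose promoter holds the sterol regulatory form printed above, was at 84.4, 91.1 and 88.9 CPM with miR-148a-3p, against 72.2, 65.3 and 89.9 CPM in the controls. The 3 miR-148a-3p values lay close together, and control replicate 3 lay among them. The difference was 0.21 (edgeR adjusted p = 0.899, SE 0.23), 0.12 without control replicate 2 and 0.36 without control replicate 3. SREBF2 was thus on the opposite side of 0 from SREBF1, and neither passed.

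SCAP, the escort protein that senses cholesterol, was at 80.4, 72.2 and 72.4 CPM with miR-148a-3p, against 35.6, 67.7 and 89.9 CPM in the controls. Its fitted difference of 0.24 (edgeR adjusted p = 0.905, SE 0.28) turned to −0.065 without control replicate 1 and was 0.56 without control replicate 3. STARD4, a carrier that moves sterol between membranes, was at 21.8, 27.2 and 23.0 CPM, against 31.8, 44.3 and 21.6 CPM, a difference of −0.44 (edgeR adjusted p = 0.858, SE 0.36) that was −0.17 without control replicate 2. In this list 3 genes had lower and 2 higher fitted values, and the median was −0.25, the lowest of the 4 lists. It was −0.46 without control replicate 1 and −0.07 without control replicate 3.

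The fatty acid enzymes included the 2 most abundant genes of the list, and 5 of the 7 tested had lower fitted values. FASN (chromosome 17, 82078338 to 82098236), the synthase that builds palmitate, was at 406, 452 and 430 CPM with miR-148a-3p, against 405, 583 and 645 CPM in the controls. The miR-148a-3p libraries were close together, while control replicate 1 lay level with the lowest of them and the other 2 controls were higher. The log2 fold change was −0.34 (edgeR adjusted p = 0.726, SE 0.18). It was −0.52 (edgeR adjusted p = 0.197, SE 0.16, unadjusted p = 0.00237) without control replicate 1, and −0.20 without control replicate 3.

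SCD (chromosome 10, 100347233 to 100364826) was at 729, 826 and 713 CPM with miR-148a-3p, against 576, 1075 and 961 CPM in the controls. As with FASN, control replicate 1 was the lowest library and the other 2 controls the highest. The log2 fold change was −0.20 (edgeR adjusted p = 0.885, SE 0.19), −0.43 (edgeR adjusted p = 0.338, SE 0.16) without control replicate 1, and −0.02 without control replicate 2.

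ELOVL6, which elongates palmitate to stearate, was at 134, 140 and 138 CPM with miR-148a-3p, against 176, 144 and 133 CPM in the controls. In contrast to FASN and SCD, its highest library was control replicate 1, and the fitted difference was −0.14 (edgeR adjusted p = 0.923, SE 0.20), or −0.012 without that library and −0.22 without control replicate 3. ACACA, the carboxylase that makes malonyl-CoA, FADS1, the delta-5 desaturase, ACLY, which cleaves citrate to acetyl-CoA, and ACSS2, which makes acetyl-CoA from acetate, had log2 fold changes from −0.14 (ACACA) to 0.16 (ACSS2), each within 1 SE of 0. ACLY and ACSS2 turned below 0 without control replicate 1 (−0.23 and −0.0026), and ACACA turned to 0.021 without miR-148a-3p replicate 1. FADS1 and FADS2 lie next to each other with overlapping spans on chromosome 11, and FADS2 had 6 to 26 reads with miR-148a-3p and 7 to 11 in the controls. The median of the 7 tested fatty acid enzymes was −0.14.

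The sterol and fatty acid branches differed little from each other. The median log2 fold change was −0.08 over 18 sterol enzymes (12 lower, 6 higher) and −0.14 over 7 fatty acid enzymes (5 lower, 2 higher), with −0.0039 over all genes tested. The sterol median minus the fatty acid median was 0.06, and it lay between −0.02 (without control replicate 1) and 0.11 (without control replicate 3) when 1 library was left out, so its sign was not stable. No test was made of this difference, since genes are not replicates. Fitted values ran from −0.61 to 0.52 over the sterol enzymes and from −0.34 to 0.16 over the fatty acid enzymes, a branch with fewer genes, and this difference in range was not tested.

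The summed levels of both branches overlapped between the groups. The 18 sterol enzymes summed to 1824, 1842 and 2186 CPM with miR-148a-3p, against 1910, 2210 and 2131 CPM in the controls. The 7 tested fatty acid enzymes summed to 1668, 1854 and 1655 CPM with miR-148a-3p, against 1516, 2259 and 2173 CPM in the controls, with SCD and FASN making up most of the sum. In this branch the miR-148a-3p libraries lay between control replicate 1 and the other 2 controls.

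**Figure D4:**
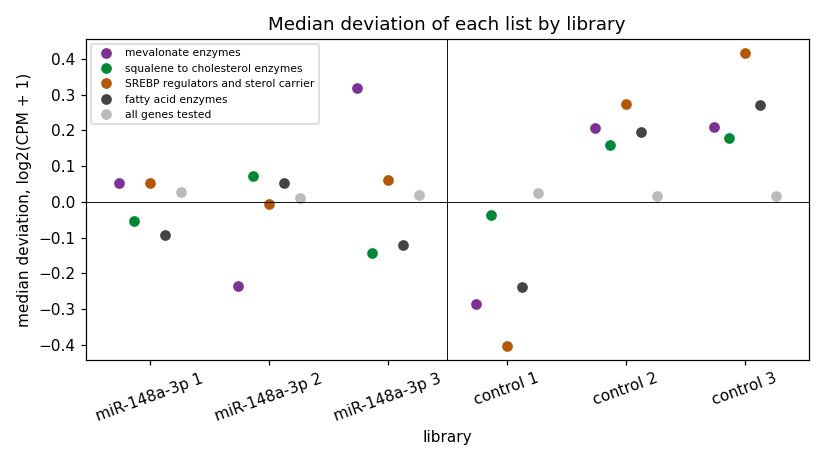
Median deviation of each list from its mean over the 6 libraries, on the log2(CPM + 1) scale, 1 point per list and library, with the miR-148a-3p libraries on the left. Control replicate 1 has negative medians in all 4 lists and the other 2 controls positive ones, while all genes tested stay near 0.

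Control replicate 1 was low across much of the list. Among the 30 tested members it was the lowest of the 6 libraries for 13 (43.3%), against 21.6% of all genes tested, and the highest for 7 (23.3%), against 21.6%. Its median deviation on the log2(CPM + 1) scale was −0.29 for the mevalonate enzymes, −0.04 for the later sterol enzymes, −0.40 for the sensing and transport genes and −0.24 for the fatty acid enzymes. In control replicates 2 and 3 these medians were 0.16 to 0.42. In the 3 miR-148a-3p libraries they lay between −0.24 and 0.32, and over all genes tested they were 0.01 to 0.03 in every library. HMGCS1, MSMO1 and ELOVL6 were among the members above their 6-library mean in control replicate 1.

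Without control replicate 1 more members had an unadjusted p below 0.05, but none passed. Of 31 members then tested, 22 had lower fitted values and 8 had an unadjusted p below 0.05: HMGCS1, FASN, SCD, INSIG1, CYP51A1, SREBF1 and LSS on the lower side and FDPS on the higher. The smallest adjusted p was 0.0967, for HMGCS1. Control replicate 1 was singled out for its low values in this list. Leaving it out raises the control mean of the genes it was low for, by construction. The count of 8 is therefore no separate support for a difference. Over all genes, 26 passed and 745 of 9309 had an unadjusted p below 0.05 without this library, against 1 and 606 of 8921 with it. Whether its values are technical was not tested.

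**Figure D5:**
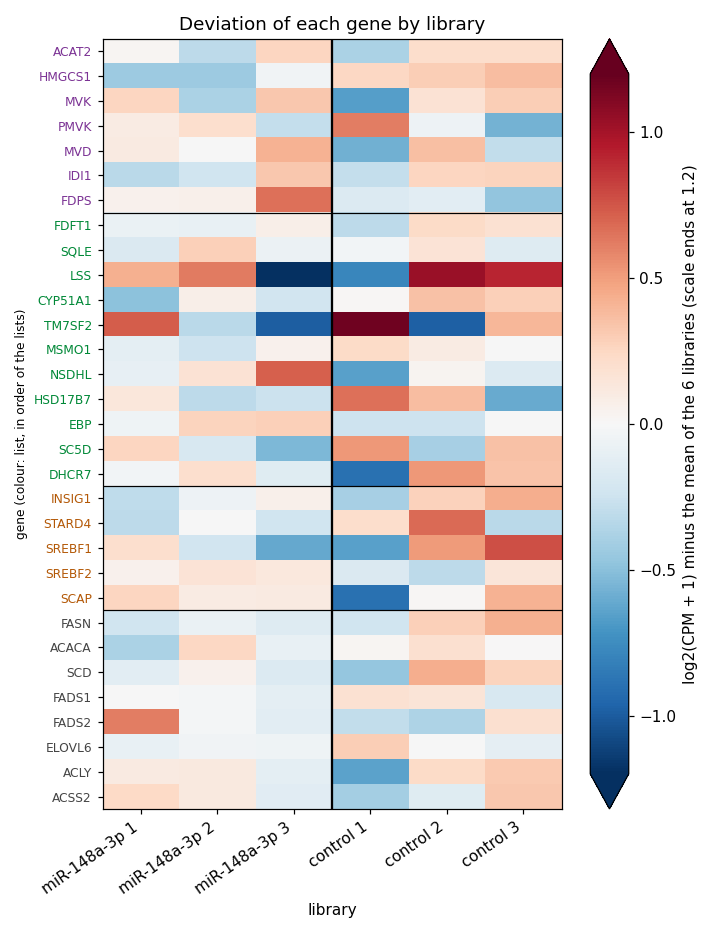
Heat map of log2(CPM + 1) minus the mean of the 6 libraries, with the 31 genes in rows by list and the libraries in columns, miR-148a-3p on the left; red is above and blue below the mean. The column of control replicate 1 holds the lowest value for 13 of the 30 tested genes, and HMGCS1 is below its mean in all 3 miR-148a-3p libraries.

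No gene of the neighbouring pathways passed. Of each of 6 further lists, 0 tested genes passed in either direction with edgeR, DESeq2 or limma-voom. With edgeR each had at most 1 gene with an unadjusted p below 0.05. Together these were 3 of 82 genes, against 6.79% of all genes tested. For the directions below, 50.5% of all genes tested had lower fitted values. In SREBP processing and degradation, 5 of 14 tested genes were lower and 9 higher (median 0.11), with TRIM28, a transcriptional corepressor, at 0.31 (SE 0.19) and SAR1B, a coat protein of vesicles that leave the endoplasmic reticulum, at 0.58 (SE 0.39). In sterol uptake, efflux and storage, 13 of 17 genes were tested, and 4 of these 13 were lower and 9 higher (median 0.13). The efflux transporters ABCA1 and ABCG1 were too low to be tested, so these counts leave them out. ABCA1 was at 5.40 CPM with miR-148a-3p and 14.0 CPM in the controls, and ABCG1 at 3.25 and 7.33 CPM. The groups overlapped for both. GRAMD1A, which carries sterol inward from the plasma membrane, was at 104 CPM with miR-148a-3p and 74.6 CPM in the controls (0.49, SE 0.24). NPC2, the lysosomal cholesterol carrier, had −0.28 (SE 0.19).

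Among other uses of isoprenoids, the routes that compete with sterols for FDPS products, 5 of 13 tested genes were lower and 8 higher (median 0.02). DHDDS, which makes dolichol precursors, had 0.49 (SE 0.35) and PGGT1B, a geranylgeranyl transferase subunit, −0.37 (SE 0.33). In fatty acid elongation, activation and supply, 10 of 16 were lower and 6 higher (median −0.09). ACSL3, an acyl-CoA synthetase of lipid droplets, was at 322 CPM with miR-148a-3p and 420 CPM in the controls (−0.38, SE 0.18, edgeR adjusted p = 0.725), and ACSL4, which activates arachidonate, had −0.49 (SE 0.25). Glycerolipid synthesis had 7 of 12 lower and 5 higher (median −0.14), with the acyltransferases AGPAT2 at 0.58 (SE 0.27) and AGPAT1 at 0.45 (SE 0.27). Fatty acid oxidation had 6 of 14 lower and 8 higher (median 0.05), with HADHB, of the mitochondrial trifunctional protein, at −0.61 (SE 0.30) and ETFA, an electron carrier subunit, at 0.37 (SE 0.20).

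The microRNAs encoded within the SREBF genes were scarce in wild-type cells. MIR33A lies within the span of SREBF2 (mature miR-33a-5p on chromosome 22, 41900949 to 41900969) and MIR33B within that of SREBF1 (mature miR-33b-5p on chromosome 17, 17813897 to 17813916). miR-33a-5p had 33 of 3627859 microRNA counts, 0.000910% (Wilson 95% interval 0.000648% to 0.00128%), and ranked 335 by name. miR-33b-5p had 1 count, below the 3 counts that a count of 0 allows. The 3p arms had 2 counts for miR-33a-3p and 58 for miR-33b-3p. By comparison miR-148a-3p had 253510 counts, 6.99% of the total. There is 1 such library and it comes from cells with DROSHA, so it cannot be compared with the knockout libraries, and the intervals cover counting error only.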

How the data were processed

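The authors deposited unnormalized read counts by gene symbol for 6 oligo-dT primed 3′ mRNA libraries, and counts per microRNA isoform for 1 small RNA library, per the labels' protocols and the file headers. Per the submitters' processing notes, cutadapt, STAR, Bowtie2 and GRCh38 were used. For their roles and versions, the counting tool and the annotation: not given in the sources used here. A gene without a row was read as 0, and isoforms with a blank count were left out.

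The 31 members and all gene lists were chosen with earlier results of these data known. The test was edgeR 4.0.16's quasi-likelihood F test in R 4.3.3 (TMM, filterByExpr by group, no covariate), fitted on all 8921 genes kept, with Benjamini-Hochberg adjustment over them and a threshold of 0.05. SE is the absolute log2 fold change divided by the square root of F. CPM values use TMM library sizes. Library deviations use log2(CPM + 1). No p was computed over a list. With 3 libraries against 3, an exact two-sided permutation test of 1 gene cannot go below 0.1, so none was used.

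Genes given in full were the 3 with the smallest p and the most abundant of each enzyme list, all 5 sensing and transport genes, and members whose groups did not overlap; of each neighbouring list, the 2 genes with the smallest p. Others are summarised. FDPS and HMGCS1 promoters were chosen after their values were seen. Members matched RefSeq symbols for 31 of 31. MicroRNA shares have Wilson intervals (scipy 1.17.1). Libraries of 1 group differed pairwise by more than sampling noise (chi-square per degree of freedom 2.54 to 5.87), so none was treated as a repeat of another.

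On counts simulated for this comparison over 8921 genes (3 simulations), the test called 6.95% of genes with a true log2 change of 0.5, 45.0% at a change of 1, 95.8% at a change of 2, and 0.0592% without a change. The simulated spread followed the trend with level over all genes, without spread of single genes around it. No shift shared by many genes of 1 library was simulated, so the rates may differ in the real libraries. Alternatives were other size factors, DESeq2 1.42.0, limma 3.58.1 (voom), other count filters, a replicate block and each library left out.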

Additional observations from a re-analysis of the deposited data

Results flagged for a closer look

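In the small RNA library, which no comparison between groups uses, 2 microRNAs encoded within the SREBF genes exceeded the limit of 3 counts set by a count of 0. miR-33a-5p, from within SREBF2, had 33 counts. miR-33b-3p, from within SREBF1, had 58 counts, against 1 count for miR-33b-5p, the arm that shares its seed with miR-33a-5p. No control library was analysed for them.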

How the results depend on the processing

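Under all 13 alternatives of the comparison, 0 members passed. The 4 medians (sterol enzymes, fatty acid enzymes, sensing and transport genes, and sterol minus fatty acid) moved by less than the spread between libraries. That spread was the within-group SD of each median taken library by library, 0.094 to 0.31 on the log2 scale. Leaving out 1 of 3 libraries can hardly move a median that far, so this is no measure of stability. The branch difference changed sign all the same. With 1 library left out, the sterol median lay between −0.13 and −0.04, the fatty acid median between −0.17 and −0.04, the sensing and transport median between −0.46 and −0.07, and their branch difference between −0.02 and 0.11. The number of genes called over the whole table was 1, but 2 with DESeq2, 3 with limma-voom, 18 without the count filter, 3 with the replicate block and 1 to 26 with 1 library left out, the 26 without control replicate 1. Among the genes given in full, 2 changed sign with 1 library left out: FDFT1 ran from −0.24 (without control replicate 1) to 0.011 (without control replicate 2) and SCAP from −0.065 (without control replicate 1) to 0.56 (without control replicate 3), and the cause was not tested. Over all 30 members, 11 changed sign and 27 moved by over 1.5 times with 1 library left out. Whether the replicate numbers pair the libraries was not settled. Same-numbered libraries had deviations correlated at 0.13, 0.09 and −0.0018, and differently numbered ones at −0.13 to 0.03. The replicate block called 0 members and left 4 with an unadjusted p below 0.05, against 2 without the block. Over all 8921 genes, 768 had an unadjusted p below 0.05 with the block and 606 without it. The share of miR-33a-5p was 0.00135% without the most abundant microRNA name, by construction. At 630142 to 1564125 counts per library, PMVK, LSS, TM7SF2, HSD17B7 and FADS2 rest on few reads.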

Other observations

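The ratio of HMGCS1 to FDPS within each library, a measure chosen after the values of both genes were seen, was 1.06, 1.05 and 0.913 with miR-148a-3p, against 1.98, 1.99 and 2.65 in the controls. A ratio within a library does not depend on library size. It was given no test, because the pair was picked for its difference. Since every miR-148a-3p library was below every control for HMGCS1 and above every control for FDPS, the ratio had to separate the groups. In the miR-148a-3p libraries the synthase and the farnesyl pyrophosphate enzyme were counted at nearly equal levels, and in all 3 controls the synthase was well above. Control replicate 1, which was low for many other members, did not stand apart from control replicate 2 in this ratio.

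The spread within the control group was wider for most members, and less often so without control replicate 1. Of the 30 tested members, 21 (70.0%) had a larger SD in the control group than in the miR-148a-3p group, against 52.8% of all genes tested. SCD had an SD of 61.1 CPM with miR-148a-3p and 261 CPM in the controls, FASN 23.0 and 124 CPM, and INSIG1 29.9 and 78.7 CPM. Without control replicate 1 the control SDs of the 2 remaining libraries were 80.2, 43.6 and 25.2 CPM for SCD, FASN and INSIG1. Those of SCD and FASN were still above their miR-148a-3p SDs, and that of INSIG1 was below. The members with a larger SD in the controls were then 12 of 30 (40.0%), against 38.7% of all genes tested. Control replicate 1 was picked as the low library, so a smaller spread without it follows partly by construction. An SD of 2 libraries was then also set against an SD of 3, which tends to lower the share for any gene. Over all genes tested the share fell from 52.8% to 38.7%.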
